A study of Mus musculus with 27 samples.

Results

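The genes described here are 10 components of the actin cytoskeleton: the actins Actb and Actg1, the monomer-binding proteins Pfn1, Tmsb4x and Tmsb10, the filament turnover proteins Cfl1 and Coro1a, the branching factor subunit Arpc2, and the integrin adhesion proteins Tln1 and Vcl. They were found by gene symbol among the 55483 genes of the deposited count table, in which each of the 10 symbols had a row. All 10 passed the filter on low counts in every comparison. The counts came from RAW264.7, a transformed mouse macrophage line grown in culture. Treatment lasted 6 h, with DMSO (the solvent control), with LPS (1 µg/ml) plus DMSO, or with LPS plus TM7nox, the tanshinone mimics being used at 10 µM per the labels. The group given LPS plus DMSO is called LPS below. LPS is a cell wall component of Gram-negative bacteria that activates macrophages. TM7nox is a tanshinone mimic, a small molecule class made to interfere with the RNA-binding protein HuR. For each treatment there were 4 libraries of total RNA, 4 of RNA recovered with an anti-HuR antibody (ribonucleoprotein immunoprecipitation, RIP) and 1 of RNA recovered with control IgG, 27 in all. The labels gave no group with TM7nox alone. They number the replicates but do not say that these were separate cultures, so p-values measure the spread between these samples, which may be technical.

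Actin exists as monomers and as filaments, and cells move, spread and engulf particles by exchanging one for the other. Thymosin β4 (Tmsb4x) and thymosin β10 (Tmsb10) hold monomers in reserve, profilin (Pfn1) feeds them to growing filament ends, and cofilin (Cfl1) severs old filaments. The Arp2/3 complex, of which Arpc2 is a subunit, starts branches that push the membrane forward during phagocytosis and ruffling, and coronin 1A (Coro1a) is the coronin of blood cells that binds filaments and Arp2/3. Talin (Tln1) activates integrins and, with vinculin (Vcl), ties them to filaments. HuR (Elavl1) binds U-rich and AU-rich stretches, mostly in 3′ UTRs, and the β-actin mRNA has been described as a HuR target in other cells.

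Libraries held 2728534 to 41449233 counts. RNA DMSO replicate 1 was the shallowest, and the next RNA library held 16258731. All 10 macrophage markers on a fixed list stood above 1 CPM at the median of the 12 RNA libraries (CPM being counts set relative to library size and scaled by TMM, which sets the typical gene equal between libraries), with a summed level of 3658 to 7203 CPM. The summed level was at most 0.167 CPM for 6 fibroblast markers, 0.262 CPM for 5 T and B cell markers and 0.390 CPM for 4 epithelial markers. Lum, Epcam and Krt8 were at 0 in all 12. The 6 muscle markers, among them the muscle actins, summed to 0.202 to 0.899 CPM in DMSO, 2.27 to 4.29 CPM in LPS and 2.00 to 5.26 CPM in LPS+TM7nox, with Acta1 at 0 throughout. They moved with LPS, and their part in the results was not tested. Reads of Actb, Tmsb4x, Tmsb10 and Arpc2 overlap no other annotated gene. Each of the other 6 overlaps at least 1 gene on the opposite strand (0610009L18Rik for Actg1, Rnf167 and 1700029K24Rik for Pfn1, Snx32 for Cfl1, Bola2 for Coro1a, Creb3 for Tln1, Ap3m1 for Vcl), and the strand setting of the counting is not given in the sources used here. Actg1 also overlaps Gm55891 and Mir6935 on its own strand, and Pfn1 overlaps Gm12319, so whatever the strand setting their reads could be shared with these genes. Counts of the actin pseudogene rows Actg-ps1 and Actb-ps1 came to 75 and 3 over all 27 libraries, but reads shared by near-identical copies could have been assigned differently by the authors' counting, and this limits what can be said of both actins.

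The 3′ UTRs of the members differ in the sequence HuR is known to bind, and 6 are shown: both actins and the 3 monomer-binding genes, whose members differed in recovery with anti-HuR, and Cfl1, which has a long T run. Each line is the 30 bases of the 3′ UTR with most T (U in the RNA), 5′ to 3′ on the coding strand of GRCm39, from the longest coding transcript in GENCODE M39. Capitals mark the longest T run within those bases.
Actb: gTTTTTTTTTTTTTTTTTTTTTTTTTTTTT
Pfn1: ttttttggtcTTTTTTTTTTTTTTTTTTTT
Cfl1: gggaattgaTTTTTTTTTTTTTTTTTTTTT
Tmsb4x: TTTTTTTTTgttcaaacaattttaattatt
Actg1: tattcattctttaatttatgtaaggTTTTT
Tmsb10: cacTTTgtctcttccaaaccccttctctgt
The Actb window lies at chr5:142889405-142889434 on the minus strand, in a gene spanning chr5:142888870-142892509. The Pfn1 window is at chr11:70542700-70542729 (minus strand) and that of Cfl1 at chr19:5544629-5544658 (plus strand). The windows of Tmsb4x, Actg1 and Tmsb10, all on the minus strand, are at chrX:165990135-165990164, chr11:120236628-120236657 and chr6:72934732-72934761.

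Over the whole 3′ UTR, the longest T run was 29 bases in Actb, 21 in Cfl1, 20 in Pfn1, 9 in Tmsb4x and Vcl, 6 in Actg1, 5 in Arpc2 and Tln1, 4 in Coro1a and 3 in Tmsb10. A run of 20 or more was found in 334 of 10866 coding genes with a usable 3′ UTR (3.07%), so 3 of the 10 members carry a feature that few genes have. In the Ensembl canonical transcript, a choice tried after these values had been seen, the run was 34 bases in Pfn1 and 4 in Arpc2, and it was the same in the other 8. TTTTTTT, searched on the strand of the mRNA with overlapping matches counted, occurred 40 times in Actb, 20 in Cfl1, 14 in Pfn1, 5 in Vcl and 4 in Tmsb4x, and 47.5% of all such 3′ UTRs held it. In the Ensembl canonical transcript Pfn1 held 45, in a 3′ UTR of 2068 rather than 279 bases. The AU-rich pentamer ATTTA was found 5 times in Vcl, 2 times each in Actg1 and Cfl1 and once each in Actb and Tln1, against 73.1% of 3′ UTRs with at least 1. The 2 actins, whose proteins are almost the same, differ in 3′ UTR composition: 36.2% U in the 683 bases of Actb and 30.9% in the 702 of Actg1.

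In unstimulated cells Actb was by far the most abundant member per length. Per kilobase of annotated exon, its level in DMSO total RNA was 1600 ± 336 CPM (SD, n = 4). Cfl1 (196 ± 48.7) and Tmsb4x (188 ± 84.3) followed and did not differ beyond their spread, as did Pfn1 (125 ± 10.2) and Actg1 (108 ± 10.4). Arpc2 stood at 89.6 ± 5.35 and Tln1 at 59.6 ± 3.89, above Coro1a (32.6 ± 8.52) and Tmsb10 (29.0 ± 9.25), which overlapped. Vcl was lowest at 3.03 ± 0.835 CPM per kilobase. The length used was that of all annotated exons of a gene. It was 4348 bases for Pfn1 and 1656 for Tmsb4x, against 890 and 600 in their longest coding transcripts. The order of the members between Actb and Vcl therefore depends on this choice of length, and no other length was tried. Together the 10 genes took 1.16% ± 0.252 of all counts in DMSO total RNA (SD, n = 4). The share was 1.73% ± 0.134 with LPS and 1.00% ± 0.0688 when TM7nox was added. In the anti-HuR libraries they took 10.2% ± 2.96, 17.2% ± 2.50 and 10.9% ± 1.47 in the same order. Nearly all of this was Actb (8.76%, 15.7% and 9.82%) and Pfn1 (1.34%, 1.36% and 1.03%). No other member had a mean above 0.0346% there (Tmsb4x in DMSO). The 3 IgG libraries stood at 1.04%, 1.92% and 1.10%, at the level of total RNA.

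**Figure D1:**
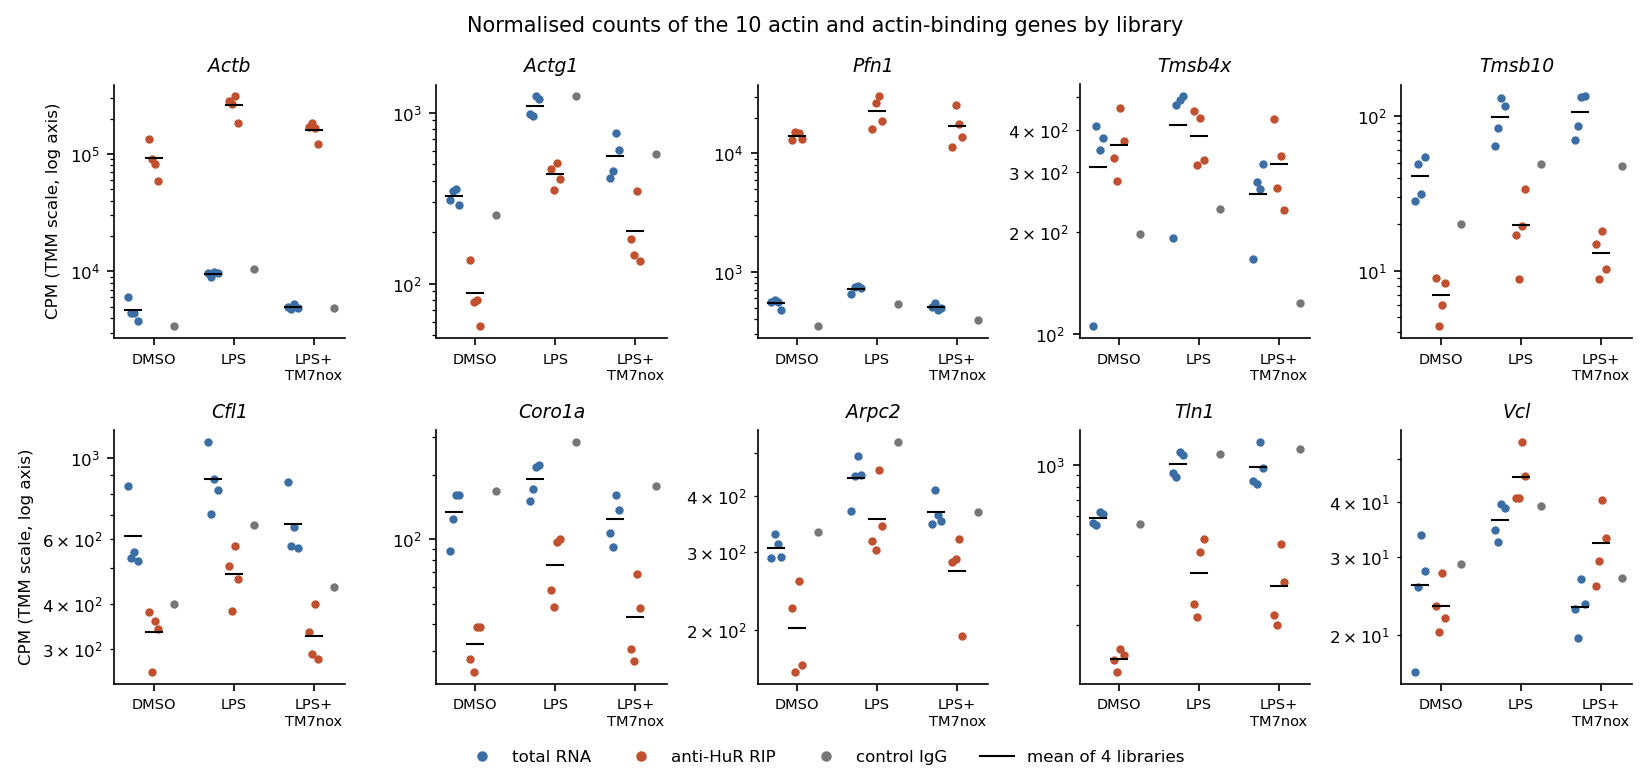
CPM on the TMM scale (log axis) of each member in each of the 27 libraries, by treatment and colour-coded by assay, with a bar at the mean of the 4 libraries of a group. At each treatment Actb and Pfn1 lie far higher in anti-HuR RIP than in total RNA, with the IgG libraries near total RNA, and Actg1, Tmsb10, Coro1a and Tln1 lie lower in RIP.

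LPS raised total RNA of both actins, Tmsb10, Pfn1, Arpc2 and Tln1. At an adjusted p (Benjamini-Hochberg FDR from edgeR's quasi-likelihood test over all 12369 genes tested) under 0.05, 6 of the 10 members were higher in LPS than in DMSO and 0 were lower. The background was high: 42% of all genes tested were called, 20.2% higher and 21.7% lower. All 6 had groups that did not overlap, as did 20.4% of all genes in that direction. The members' median log2 change was 0.46, against -0.04 over all genes. In these bulk libraries, fewer cells with a message and less of it per cell cannot be told apart.

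Actb in total RNA measured 6063, 4459, 4429 and 3751 CPM in DMSO replicates 1 to 4 and 9700, 8970, 9893 and 9665 CPM in LPS. Every LPS library was thus above every DMSO library, and the log2 change was 0.97 ± 0.17 (SE, edgeR FDR = 0.000463). Actg1, the other cytoplasmic actin, started much lower and rose more, from 310, 346, 356 and 289 CPM to 988, 954, 1247 and 1210 CPM. Its groups did not overlap either, and the log2 change was 1.70 ± 0.18 (edgeR FDR = 3.65e-06), a 3.24-fold rise that 6.78% of genes tested exceeded.

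Among the monomer-binding genes, Tmsb10 rose 2.32-fold (log2 1.21 ± 0.27, edgeR FDR = 0.00208) while Tmsb4x had no call. Tmsb10 measured 28.2, 49.0, 31.2 and 54.6 CPM in DMSO and 64.2, 83.9, 132 and 117 CPM in LPS, with no overlap. Tmsb4x measured 105, 411, 348 and 379 CPM in DMSO and 191, 473, 491 and 504 CPM in LPS. Replicate 1 was the lowest in both groups, so the groups overlapped and the log2 change of 0.36 ± 0.36 had an edgeR FDR of 0.46. With the replicate number as a block it was 0.41 and was called (edgeR FDR = 0.0358). Pfn1 stood at 560, 578, 556 and 479 CPM in DMSO and at 649, 744, 758 and 728 CPM in LPS. This was a small but non-overlapping rise (log2 0.35 ± 0.11, edgeR FDR = 0.0258), and the call was lost when RNA LPS replicate 2 (edgeR FDR = 0.0563), 3 (0.0688) or 4 (0.0528) or RNA DMSO replicate 3 (0.0519) or 4 (0.082) was left out, as well as with upper-quartile scaling (0.082) or no filter on low counts (0.0588).

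Of the turnover, branching and adhesion genes, Tln1 (log2 0.74 ± 0.14, edgeR FDR = 0.00082) and Arpc2 (0.46 ± 0.11, edgeR FDR = 0.00436) rose. Tln1 went from 548 to 625 CPM across the DMSO libraries to 882 to 1144 CPM across the LPS libraries, and Arpc2 from 290 to 328 CPM to 370 to 492 CPM. Cfl1, the main severing factor, had a log2 change of 0.46 ± 0.21 that missed the threshold (edgeR FDR = 0.0998). Its highest DMSO value, 839 CPM, was in the shallow replicate 1, against 522 to 555 CPM in the other 3. Without that library the change was 0.68 and was called (edgeR FDR = 0.0097), which made 7 members higher. With all libraries and no filter on low counts Cfl1 was also called (0.52, edgeR FDR = 0.00842).

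Coro1a (0.46 ± 0.20, edgeR FDR = 0.0758) and Vcl (0.42 ± 0.16, edgeR FDR = 0.0524) also missed it. Coro1a was called once RNA LPS replicate 1 was left out (0.55, edgeR FDR = 0.0479) and Vcl without RNA DMSO replicate 3 (0.56, edgeR FDR = 0.0165). Both were also called with DESeq2 size factors (edgeR FDR = 0.0489 and 0.028), with no filter (0.00842 and 0.04) and by DESeq2 (adjusted p = 0.0425 and 0.0215). With the replicate block all 10 members were called higher (edgeR FDR = 0.000501 for Cfl1, 0.00165 for Coro1a and 0.0124 for Vcl), beside 25.2% of all genes higher and 27.2% lower in that fit. Replicates 3 and 4 alone also called 10, beside 29.3% of all genes higher, and replicates 1 and 2 alone called 1, beside 8.41%. Where libraries were scaled by total counts, 27.7% rather than 48.2% of the genes called were higher, and Pfn1 (log2 0.05) and Arpc2 (0.17) lost their calls.

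**Figure D2:**
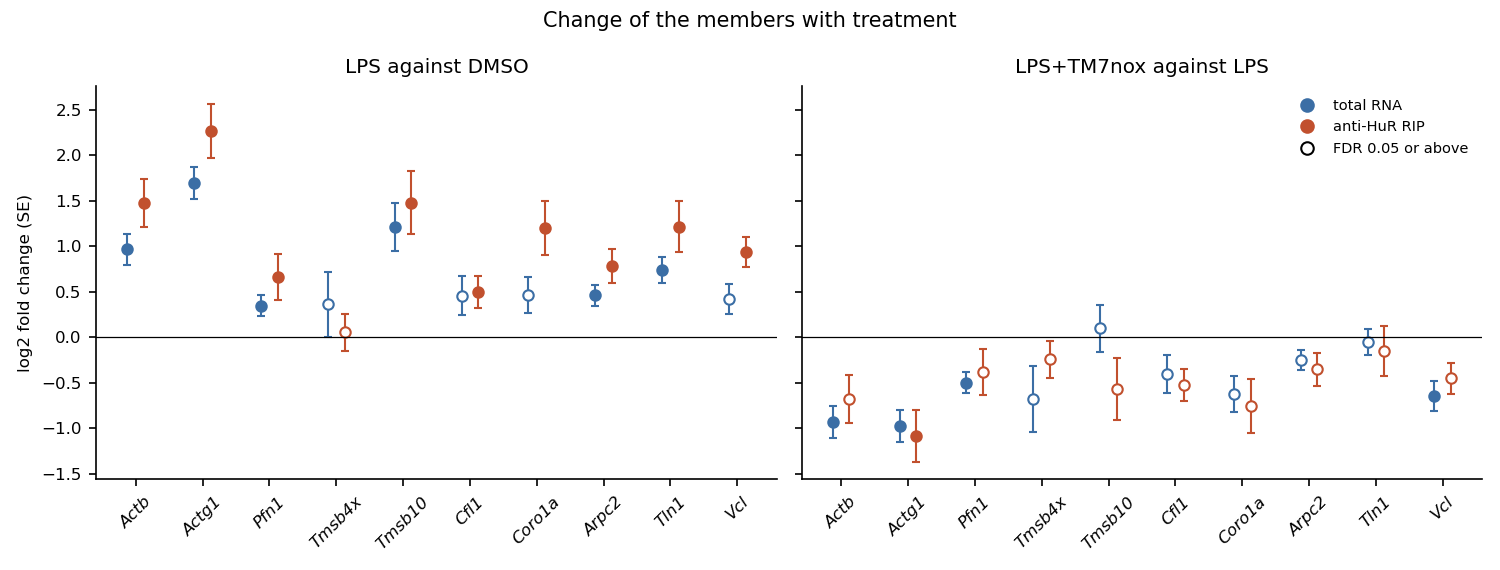
Log2 fold change with its SE for each member, LPS against DMSO on the left and LPS+TM7nox against LPS on the right, in total RNA (blue) and anti-HuR RIP (red), filled where the FDR was under 0.05. Both panels use the same 4 LPS libraries per assay. With LPS all points lie above 0 and Actg1 is highest in both assays, while with TM7nox Tmsb10 in total RNA is the point above 0. Scaled by total counts, Tmsb4x and Cfl1 in RIP lie below 0 with LPS, and Tmsb4x does so with upper-quartile scaling too.

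With TM7nox added to LPS, both actins, profilin and vinculin fell in total RNA. The share of all genes called was 13.8% (7.37% higher and 6.4% lower), and of the members 0 were higher and 4 lower, with a median log2 change of -0.56 against -0.00 over all genes. The 4 did not overlap with LPS, beside 10.3% of all genes in that direction and 11.1% in the other. This comparison and the one above share the 4 LPS libraries, so the values of the members are given side by side and are not independent. Actb measured 5023, 4823, 5300 and 4900 CPM in LPS+TM7nox. All were below the lowest LPS library, and the log2 change was -0.93 ± 0.17 (edgeR FDR = 0.00261), after 0.97 for LPS itself. Against DMSO the level was not called different (log2 0.04 ± 0.17, edgeR FDR = 0.881). Actg1 measured 416, 456, 765 and 605 CPM, also below every LPS library, with a log2 change of -0.98 ± 0.17 (edgeR FDR = 0.00187). Unlike Actb it was called above DMSO, by 0.72 ± 0.17 (edgeR FDR = 0.00343).

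Pfn1 stood at 511, 551, 478 and 493 CPM and fell by 0.50 on the log2 scale (SE 0.11, edgeR FDR = 0.0101), without overlap with LPS. Vcl measured 34.7, 32.5, 39.6 and 38.9 CPM in LPS and 22.9, 19.7, 26.8 and 23.5 CPM in LPS+TM7nox. These did not overlap, and the log2 change was -0.65 ± 0.16 (edgeR FDR = 0.0168), although without RNA LPS_TM7nox replicate 2 the FDR was 0.0521. The other integrin linker, Tln1, had a log2 change of -0.06 ± 0.14 (edgeR FDR = 0.856) and stayed called above DMSO at 0.68 ± 0.14 (edgeR FDR = 0.00127). Tmsb10 likewise had 0.10 ± 0.26 (edgeR FDR = 0.864) and was above DMSO by 1.31 ± 0.27 (edgeR FDR = 0.00102). Whether Tmsb10 and Tln1 differ from the actins in their response was not tested.

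Coro1a (-0.62 ± 0.20, edgeR FDR = 0.0515), Tmsb4x (-0.68 ± 0.36, edgeR FDR = 0.259), Cfl1 (-0.41 ± 0.21, edgeR FDR = 0.249) and Arpc2 (-0.25 ± 0.11, edgeR FDR = 0.178) were not called. The replicate block called the first 3 of these (edgeR FDR = 0.000637, 0.0105 and 0.00387), 7 members in all, beside 12.7% of all genes lower. Coro1a was also called with DESeq2 size factors (edgeR FDR = 0.0438), by DESeq2 (adjusted p = 0.0179) and without RNA LPS replicate 1 (0.0438) or RNA LPS_TM7nox replicate 3 (0.0374). With no filter on low counts Tmsb4x (-0.68, edgeR FDR = 0.000633) and Coro1a (-0.62, edgeR FDR = 0.00278) were called. Against DMSO, 3 members were higher (Actg1, Tmsb10 and Tln1) and 0 lower, beside 23.7% of all genes higher and 23.6% lower (47.3% in all). Under total-count scaling 29% rather than 50% of the genes called were higher there, and 1 member (Tmsb10) was higher and 3 (Pfn1, Coro1a and Vcl) lower, beside 15.1% and 36.9% of all genes. Without RNA DMSO replicate 1, Vcl was called lower than DMSO (log2 -0.36, edgeR FDR = 0.0345).

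Recovery with anti-HuR split the members. Actb and Pfn1 were among the most strongly recovered messages of the cell, whereas Actg1, Tmsb10, Coro1a and Tln1 were recovered less than the typical gene. In DMSO 2 members were called higher in RIP than in total RNA and 6 lower, beside 37% higher and 33.4% lower among 14311 genes, 70.4% in all. In LPS the counts were 2 and 5 (all genes 32.9% and 30.8%, 63.7% in all), and in LPS+TM7nox 3 and 6 (35.2% and 34.8%, 69.9% in all). With so many genes called, the counts higher lie at or below the background. TMM sets the typical gene to 0 in this comparison, so it carries no absolute scale, and under total-count scaling the share of called genes that were higher was 34.7%, 25.8% and 29.6% in the 3 treatments in place of 52.6%, 51.7% and 50.3%. Mitochondrial genes took 12.1% to 22.4% of counts in total RNA and 0.56% to 1.86% in RIP, and the part of this in the ratios was not tested.

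Actb in anti-HuR RIP measured 134813, 90523, 81506 and 58981 CPM in DMSO. LPS libraries held 282782, 268072, 310702 and 184496 CPM and LPS+TM7nox libraries 170259, 184272, 164466 and 120219 CPM. Each exceeds every total RNA library by far, and IgG recovered 3404, 10513 and 4898 CPM, close to total RNA. The log2 ratio of RIP over RNA was 4.43 ± 0.26 in DMSO (edgeR FDR = 1.13e-13), 4.80 ± 0.26 in LPS (3.58e-14) and 5.07 ± 0.27 in LPS+TM7nox (1.18e-14). In DMSO 3.28% of genes had a higher ratio.

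Pfn1 was a moderately expressed message that took its place beside Actb in the RIP. It measured 12894, 15058, 14774 and 13317 CPM in DMSO, 16027, 26400, 30496 and 18611 CPM in LPS, and 11353, 25427, 17853 and 13771 CPM in LPS+TM7nox. IgG recovered 347, 531 and 395 CPM. Its log2 RIP over RNA was 4.82 ± 0.24 (edgeR FDR = 7.76e-15), 5.01 ± 0.24 (4.55e-15) and 5.15 ± 0.25 (1.99e-15), exceeded by 1.93%, 1.45% and 1.98% of genes.

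Actg1, by contrast, measured 137, 77.9, 80.2 and 56.2 CPM in DMSO RIP, below every DMSO total RNA library. LPS gave 469, 355, 508 and 408 CPM and LPS+TM7nox 182, 147, 348 and 135 CPM. Its log2 RIP over RNA was -1.76 ± 0.26, -1.32 ± 0.26 and -1.42 ± 0.26 (edgeR FDR = 2.01e-06, 0.000101 and 3.39e-05). The 2 actins thus lay on opposite sides of the typical gene in every treatment.

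The lowest ratios belonged to Tmsb10, at -2.46 ± 0.36, -2.31 ± 0.35 and -2.96 ± 0.36 (edgeR FDR = 1.40e-06, 3.58e-06 and 9.14e-08). Its RIP libraries held 4.36 to 8.98 CPM in DMSO, 8.81 to 33.7 CPM in LPS and 8.85 to 17.95 CPM in LPS+TM7nox. Coro1a (-1.94, -1.32 and -1.44), Tln1 (-1.92, -1.56 and -1.65) and Cfl1 (-0.73, -0.83 and -0.93) were also called lower in the 3 treatments. Arpc2 was called in DMSO (-0.48, edgeR FDR = 0.00938) and LPS+TM7nox (-0.37, edgeR FDR = 0.04) and not in LPS (-0.29, edgeR FDR = 0.115). The block called Arpc2 in LPS as well (edgeR FDR = 0.0224), as did leaving out RNA LPS replicate 1 (0.0491) or RIP LPS replicate 3 (0.0351). By DESeq2 the DMSO value was -0.34 (adjusted p = 0.052).

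In LPS+TM7nox the Arpc2 call was lost without any 1 of 6 libraries: RNA LPS_TM7nox replicate 2 (edgeR FDR = 0.121), 3 (0.0759) or 4 (0.0659), or RIP LPS_TM7nox replicate 1 (0.0843), 2 (0.0768) or 4 (0.195). With DESeq2 size factors it was -0.15 (edgeR FDR = 0.387), and DESeq2 gave the same value (adjusted p = 0.372). Tmsb4x was near the typical gene (0.30, -0.10 and 0.36, none called), with total-count scaling giving -0.41, -1.07 (called lower, edgeR FDR = 0.0022) and -0.58, and the block called it higher in DMSO (0.49, edgeR FDR = 0.00856) and LPS+TM7nox (0.37, edgeR FDR = 0.0388). Vcl was not called in DMSO (-0.07) or LPS (0.35) and was higher in LPS+TM7nox (0.56 ± 0.19, edgeR FDR = 0.00993), but with total-count scaling it was called lower in all 3 (-0.82, -0.66 and -0.44). With no filter on low counts the LPS+TM7nox value was 0.39 (edgeR FDR = 0.173). The LPS value was called by the block (0.34, edgeR FDR = 0.0226), with DESeq2 size factors (0.52, edgeR FDR = 0.00584) and by DESeq2 (0.52, adjusted p = 0.00442).

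**Figure D3:**
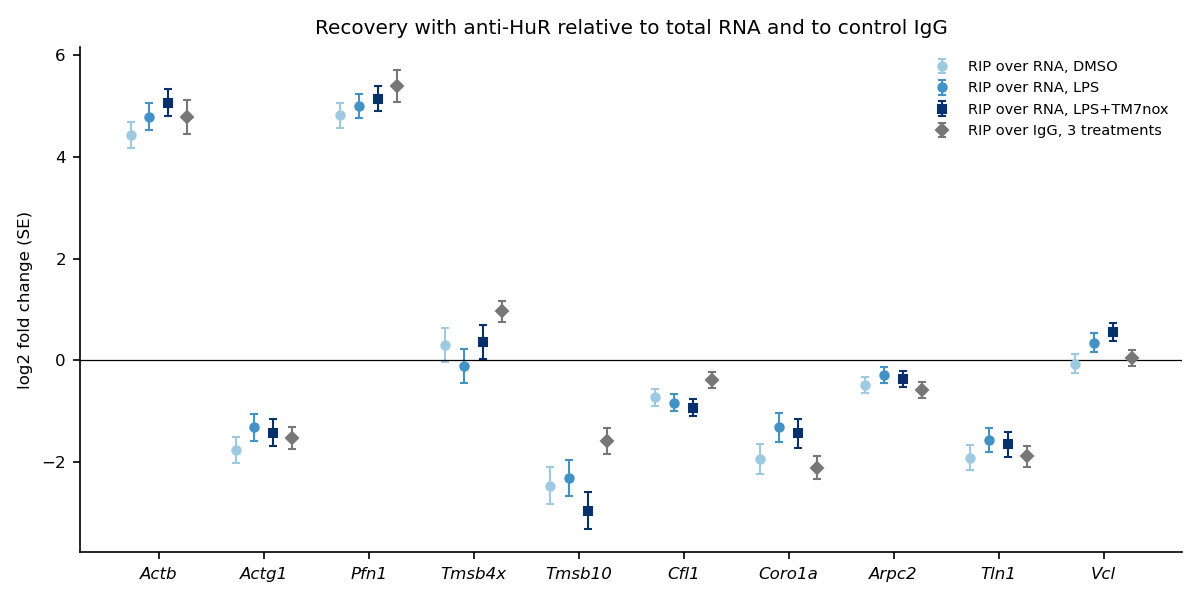
Log2 fold change with its SE of anti-HuR RIP over total RNA at each treatment and over control IgG across treatments, for each member. Actb and Pfn1 lie between 4.43 and 5.40, Actg1, Tmsb10, Coro1a and Tln1 below -1.3, and Tmsb4x, Vcl, Cfl1 and Arpc2 nearer to 0; with total-count scaling every Tmsb4x and Vcl value lies below 0, and with DESeq2 size factors Tmsb4x in LPS and Vcl in DMSO lie above it.

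Against control IgG, with the same RIP libraries, Actb and Pfn1 were again far higher and Actg1, Tmsb10, Coro1a and Tln1 lower. Tmsb4x, not called over RNA in the reported fit, was called higher here. Over the 12 RIP and 3 IgG libraries, with treatment as a covariate, 3 members were higher (Actb 4.79 ± 0.33, Pfn1 5.40 ± 0.32 and Tmsb4x 0.96 ± 0.20 on the log2 scale) and 6 lower, beside 33.8% higher and 34.2% lower of 14973 genes (68.1% in all). Of the 6, Coro1a (-2.11), Tln1 (-1.89), Tmsb10 (-1.58) and Actg1 (-1.52) were furthest from 0, and Arpc2 (-0.59) and Cfl1 (-0.38) were closer. The Cfl1 call (edgeR FDR = 0.0321) was lost without any 1 of the IgG libraries (0.0589 for DMSO, 0.179 for LPS, 0.0874 for LPS+TM7nox), without anti-HuR replicate 1 (0.072), 2 (0.169) or 4 (0.105), with DESeq2 size factors (0.128) and by DESeq2 (adjusted p = 0.0714). Vcl was at 0.04 ± 0.15 (edgeR FDR = 0.818). With replicate 3 alone, the only number that pairs the antibodies, Cfl1 (edgeR FDR = 0.302) and Arpc2 (0.103) were not called and Vcl was called higher (0.34, edgeR FDR = 0.0486). Each treatment had 1 IgG library, all replicate 3, and the test assumes that the antibody difference is equal in the 3 treatments. With total-count scaling 25.8% rather than 49.7% of the genes called were higher, Tmsb4x stood at -0.06 and Vcl was called lower at -0.99.

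Beside the T runs shown above, the order of recovery can be read against all coding genes. The median log2 RIP over RNA in DMSO was -0.96 for the 2089 genes whose longest run was 0 to 4 bases, -0.58 for 5 to 6, 0.24 for 7 to 9, 1.01 for 10 to 14, 1.64 for 15 to 19 and 2.24 for the 334 genes with 20 or more. Actb and Pfn1 lay above the middle 50% of the genes in their class (0.88 to 3.71). Cfl1 carries a run of 21 but had a log2 ratio of -0.73, below that range. The 30 bases shown for Cfl1 start at position 1108 of a 3′ UTR of 1708 bases, and the count table does not tell which 3′ end these cells use. Tmsb4x and Vcl lay within the range of their class and Actg1, Tln1, Coro1a and Tmsb10 below it, while Arpc2 lay within. This is a description across genes, which are not replicates, and whether UTR length has a part in it was not tested.

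**Figure D4:**
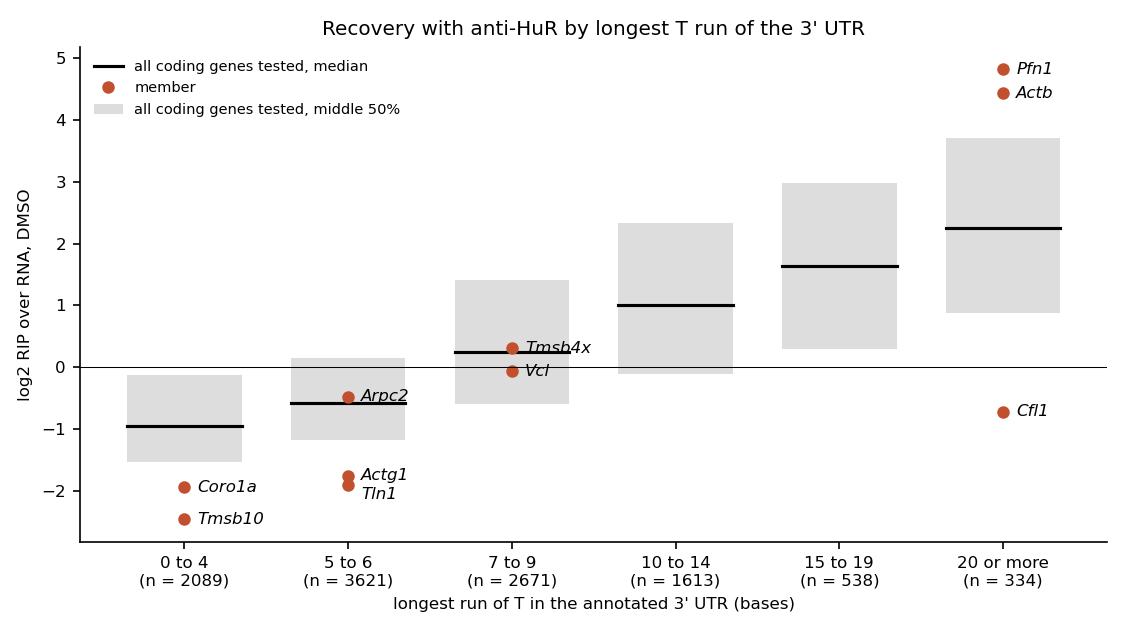
Log2 RIP over RNA in DMSO (y axis) by the longest T run in the annotated 3′ UTR in bases (x axis), with the median (line) and the middle 50% (grey bar) of all coding genes tested and each member as a point. The median climbs from -0.96 to 2.24 over the classes, Actb and Pfn1 lie above the bar of the last class and Cfl1 below it.

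In the RIP itself, LPS raised 9 of the 10 members and lowered 0, beside 23.5% higher and 21.2% lower of 13614 genes (44.7% in all). Of the 9, all except Tmsb10 had groups that did not overlap, beside 21.6% of all genes in that direction. The median log2 change was 1.07 for the members and -0.00 for all genes. Actg1 rose most (2.27 ± 0.30, edgeR FDR = 1.51e-05), followed by Tmsb10 (1.48 ± 0.34) and Actb (1.48 ± 0.27). Tln1 (1.22 ± 0.28), Coro1a (1.20 ± 0.30), Vcl (0.94 ± 0.17) and Arpc2 (0.78 ± 0.18) were also called. Tmsb4x was not, at 0.05 ± 0.20 (edgeR FDR = 0.845), and with total-count scaling it was called lower at -0.58.

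The 2 remaining calls were the least firm. Pfn1 (0.66 ± 0.25, edgeR FDR = 0.0416) lost its call without RIP DMSO replicate 1 (0.121), 2 (0.0884), 3 (0.115) or 4 (0.104) or RIP LPS replicate 2 (0.119) or 3 (0.16), with DESeq2 size factors (0.0584) or with upper-quartile scaling (0.198). Cfl1 (0.50 ± 0.18, edgeR FDR = 0.0314) lost it without RIP DMSO replicate 2 (0.146), 3 (0.0874) or 4 (0.0648) or RIP LPS replicate 1 (0.0957), 3 (0.117) or 4 (0.0621) or with upper-quartile scaling (0.219), and turned to -0.13 with total-count scaling. Under that scaling 2 members were called higher (Actb and Actg1) and 1 lower, beside 9.54% and 47.2% of all genes, and 16.8% rather than 52.6% of the genes called were higher (35.6% with upper-quartile scaling).

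TM7nox with LPS lowered 1 member in the RIP and raised 0, beside 8.64% higher and 7.61% lower of all genes (16.2% in all). That member was Actg1 (-1.08 ± 0.29, edgeR FDR = 0.017), called neither without RIP LPS_TM7nox replicate 2 (0.0581) nor without replicate 4 (0.0534). Groups did not overlap for Actg1, Actb and Vcl, all lower, beside 17.4% of all genes (7.65% higher and 9.7% lower). All these gaps were small: 184272 against 184496 CPM for Actb, 348 against 355 CPM for Actg1 and 40.5 against 40.8 CPM for Vcl. Actb had a log2 change of -0.68 ± 0.26, which missed the threshold (edgeR FDR = 0.0899). The replicate block called 5 members lower: Actg1, Actb (-0.66, edgeR FDR = 0.0326), Coro1a (-0.79, 0.000267), Vcl (-0.46, 0.00752) and Cfl1 (-0.52, 0.00407), beside 17% of all genes lower. DESeq2 called Actg1, Actb (adjusted p = 0.0282) and Cfl1 (0.0093), beside 3.64% lower of all genes, low counts included. Without RIP LPS replicate 2 Cfl1 was called (edgeR FDR = 0.0389), and without RIP LPS_TM7nox replicate 3 Coro1a was (0.0408). Against DMSO, 5 members stayed higher (Actb 0.80, Actg1 1.19, Tmsb10 0.91, Tln1 1.07 and Vcl 0.48) and 0 lower, beside 25.1% and 23.1% of genes (48.1% in all). Of these 5, only Tln1 had groups that did not overlap, beside 20.4% of all genes in that direction. Actb lost its call without RIP DMSO replicate 2 (edgeR FDR = 0.061), 3 (0.082) or 4 (0.0828). Tmsb10 lost it without RIP DMSO replicate 2 (0.123) or 3 (0.106) or RIP LPS_TM7nox replicate 1 (0.0793), 3 (0.106) or 4 (0.0513). Vcl lost it without RIP DMSO replicate 1 (0.0582), 2 (0.0902) or 4 (0.0661) or RIP LPS_TM7nox replicate 3 (0.0744) or 4 (0.0897). Total-count scaling gave 0 higher and 2 lower (Tmsb4x and Cfl1, with Vcl at -0.16), beside 10.7% and 48.3% of all genes. Of the genes called, 18.2% were then higher in place of 52.1% (37.1% with upper-quartile scaling). Upper-quartile scaling kept 2 calls, without Actb, Tmsb10 and Vcl, beside 18.3% of all genes higher. The block added Arpc2 (edgeR FDR = 0.00891) and Coro1a (0.0228), beside 31.8% of all genes higher.

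Whether a message was recovered more or less than its own change in total RNA accounts for was tested as an interaction over the 24 RNA and RIP libraries. For LPS against DMSO 0 of the 10 members were called by edgeR (0.0419% of all genes were, 0.014% higher and 0.028% lower), 0 had an unadjusted p under 0.05 (7.27% of all genes did) and DESeq2 called 0. With the replicate block 0 were called (1.03% of all genes) and 2 had an unadjusted p under 0.05, as did 15.2% of all genes. For LPS+TM7nox against LPS 0 were called by edgeR (0.00699% of all genes), 0 had an unadjusted p under 0.05 (5.39% of all genes did) and DESeq2 called 0. The change in log2 RIP over RNA with TM7nox was 0.27 for Actb (95% interval -0.38 to 0.93), 0.14 for Pfn1 (-0.46 to 0.74) and -0.10 for Actg1 (-0.85 to 0.64). Tmsb10 had the lowest value, -0.66 (-1.64 to 0.33). With LPS the change was 0.36 for Actb (-0.29 to 1.01), 0.45 for Actg1 (-0.30 to 1.19) and 0.63 for Coro1a (-0.21 to 1.46). With LPS the intervals of all 3 reach past 1 log2 unit, as do those of Tmsb4x (-1.37 to 0.56), Tmsb10 (-0.83 to 1.15) and Tln1 (-0.34 to 1.04). With TM7nox those of Tmsb10 and Tmsb4x (0.46, -0.51 to 1.43) do so too. Changes of that size are thus not shown to be absent for these members.

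Because a ratio within a library does not depend on scaling, the 2 actins and the 2 thymosins were also set against each other. In total RNA Actb had 19.6, 12.9, 12.4 and 13.0 counts per count of Actg1 in DMSO, 9.81, 9.41, 7.94 and 7.99 in LPS, and 12.1, 10.6, 6.93 and 8.10 in LPS+TM7nox. LPS lowered the ratio without overlap. On the log2 scale the difference was -0.70, lower in 4 of 4 same-numbered pairs. The exact two-sided permutation test gave p = 0.0286, the smallest that 4 against 4 can give (adjusted p = 0.0429 over 18 tests). The 18 include the tests of RIP against RNA. These all reached that smallest p and so lower the adjusted p of the treatment tests. TM7nox with LPS did not move the ratio detectably from LPS (0.07, exact p = 0.743). Against DMSO the ratio was lower in LPS+TM7nox without overlap, in 4 of 4 pairs (-0.63, exact p = 0.0286, adjusted 0.0429).

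In anti-HuR RIP the ratio of Actb to Actg1 was of another order. It was 983, 1162, 1016 and 1050 in DMSO, 602, 756, 612 and 452 in LPS, and 935, 1253, 473 and 890 in LPS+TM7nox. The single IgG libraries gave 13.5, 8.40 and 8.52, as in total RNA. RIP exceeded RNA by 6.21, 6.09 and 6.51 on the log2 scale in the 3 treatments (exact permutation p = 0.0286 and adjusted p = 0.0429 each, higher in 4 of 4 pairs). LPS lowered the ratio in RIP too (-0.82, exact p = 0.0286, adjusted 0.0429), while the difference with TM7nox, 0.49, overlapped (exact p = 0.229). LPS+TM7nox against DMSO overlapped as well (-0.33, exact p = 0.343).

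The ratio of Tmsb4x to Tmsb10 in total RNA had a mean of 7.55 ± 3.10 with DMSO, 4.17 ± 1.13 with LPS and 2.50 ± 0.525 when TM7nox was added (each with its SD over 4 libraries). The difference between LPS+TM7nox and DMSO was -1.51 on the log2 scale (exact permutation p = 0.0286, adjusted 0.0429). LPS against DMSO overlapped (-0.79, exact p = 0.114), as did LPS+TM7nox against LPS (-0.72, exact p = 0.0571). Both were lower in 4 of 4 same-numbered pairs, for which the exact paired p is 0.125, the smallest that 4 pairs can give. In RIP the ratio was 55.9 ± 18.5, 23.7 ± 10.9 and 25.1 ± 5.46, and RIP exceeded RNA by 2.93, 2.40 and 3.33 without overlap (exact p = 0.0286, adjusted 0.0429 each). Within RIP, LPS (-1.33) and LPS+TM7nox (-1.12) were below DMSO without overlap (exact p = 0.0286, adjusted 0.0429 each). LPS+TM7nox against LPS overlapped there (0.21, exact p = 0.743). IgG gave 9.79, 4.73 and 2.57.

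**Figure D5:**
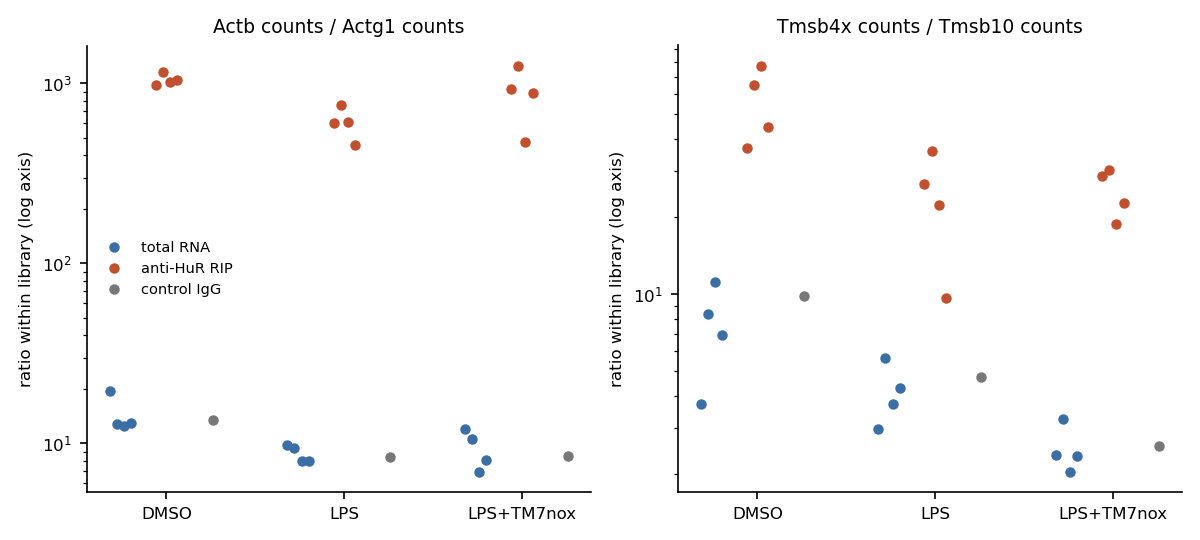
Counts of Actb per count of Actg1 (left) and of Tmsb4x per count of Tmsb10 (right) within each library, on log axes, by treatment, with 1 point per library and colours for total RNA, anti-HuR RIP and control IgG. The Actb to Actg1 ratio lies between 6.93 and 19.6 in total RNA and between 452 and 1253 in RIP, and the IgG points lie among those of total RNA.

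The wider actin machinery was followed through a list of 118 other genes in 12 roles, of which those named by size average at least 5 CPM over the libraries compared. LPS raised 54 of the 101 tested in total RNA (53.5%, beside 20.2% of all genes) and lowered 8 (7.92%, beside 21.7%), with a median log2 change of 0.42. Marcks, a membrane-associated filament crosslinker, went from 0.210 to 40.9 CPM and its relative Marcksl1 from 86.7 to 1769 CPM (edgeR FDR = 7.95e-08 and 8.41e-09). Evl, a filament elongation factor at adhesions, rose by 2.45 on the log2 scale. Inf2, a formin (-1.05), Mrtfa, a coactivator of the transcription factor SRF (-0.88), and Coro1c, a coronin (-0.84), fell. Of these, the groups of Mrtfa overlapped (17.1 to 41.6 CPM in DMSO and 16.1 to 20.4 CPM in LPS). Of the 8 Arp2/3 subunits on the list, 4 rose and 1 fell. With the replicate block 59 of the list rose and 16 fell (25.2% and 27.2% of all genes), and with total-count scaling 28 rose and 15 fell (13.2% and 34.4% of all genes). Replicates 1 and 2 alone gave 22 and 0 (8.41% and 4.97%), and replicates 3 and 4 gave 62 and 16 (29.3% each). In the RIP the counts were 50 higher and 12 lower of 104, beside 23.5% and 21.2% of all genes, again led by Marcks and Marcksl1. Total-count scaling, which lowers all genes alike, gave 20 and 28, beside 9.54% and 47.2%. Replicates 1 and 2 alone gave 34 and 4 (12.1% and 11.9% of all genes), and replicates 3 and 4 gave 44 and 9 (20.4% each).

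TM7nox with LPS lowered 18 of the 101 in total RNA (17.8%, beside 6.4% of all genes) and raised 5 (4.95%, beside 7.37%). Marcks (-2.47), the formin Fmnl1 (-1.19) and Evl (-1.07) fell most among genes above that level, and the small GTPase Rhob (1.34), the capping protein Eps8 (0.81) and the Arp2/3 subunit Arpc5l (0.63) rose. Of these, the groups of Rhob overlapped (2.91 to 5.47 CPM in LPS and 5.05 to 13.6 CPM in LPS+TM7nox). The block gave 30 lower and 8 higher (12.7% and 12.3% of all genes), replicates 1 and 2 alone 2 and 0 (0.561% and 0.786%), and replicates 3 and 4 alone 29 and 10 (13.5% and 14.3%). Of the SRF module, named after its values were seen, Srf fell by 0.71 (edgeR FDR = 0.00499) and Mrtfb rose by 0.57 (edgeR FDR = 0.00513), while Mrtfa, at 0.46, was not called (edgeR FDR = 0.147). In the RIP 15 of 104 were lower (14.4%, beside 7.61% of all genes), led by Marcks (-2.17), the adhesion protein Zyx (-1.34) and Fmnl1 (-1.29), and 7 higher (6.73%, beside 8.64%), led by Rhob (1.31), the formin Daam1 (1.13) and Mrtfb (0.87). The block gave 23 lower and 13 higher (17% and 16.6% of all genes), replicates 1 and 2 alone 4 and 1 (2.29% and 3.3%), and replicates 3 and 4 alone 6 and 5 (3.51% and 4.36%). Without RIP LPS replicate 1 there were 9 lower and 6 higher (4.7% and 5.96% of all genes), and without RIP LPS_TM7nox replicate 2 there were 9 and 7 (4.87% and 6.77%).

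Genes of the wider list also lay on both sides of the typical gene in anti-HuR recovery. In DMSO 41 of 105 were higher in RIP than in RNA (39%, beside 37% of all genes) and 45 lower (42.9%, beside 33.4%), and total-count scaling gave 26 and 59, beside 26.4% and 49.7% of all genes. The monomer-binding twinfilin gene Twf1 (3.92), Rhoa (3.92) and the cofilin phosphatase gene Ssh1 (3.38) were highest among genes averaging at least 5 CPM, each below Actb and Pfn1. Myl6, a myosin light chain (-2.17), and the filament cappers and severers Capg (-2.13) and Flii (-1.99) were lowest among these, at the level of Coro1a and Tln1. In LPS, Marcks (4.26) joined Twf1 and Rhoa, and Hcls1 and Flna were among the lowest with -1.67 and -1.60.

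The genes whose level followed Actb most closely were sought among genes averaging 50 CPM or more. Across total RNA (12 libraries) these were Ikzf1 (Pearson r = 0.963), Ccdc86 (0.959), Jarid2 (0.958), Dab2 (0.950) and Ppp1r18 (0.947) among 2662 genes. Actg1 ranked 38th (r = 0.875, Spearman rho = 0.818) and Pfn1 35th (r = 0.880, rho = 0.664). Tmsb4x had r = 0.171. Over the 12 RIP libraries they were Lasp1, an actin-binding LIM protein gene (0.971), H3f3b (0.970), Mbd2 (0.966), M6pr (0.952) and Peak1 (0.947) among 2848 genes. Actg1 ranked 18th there (r = 0.928), Pfn1 751st (r = 0.642), and Tmsb4x had r = 0.157. These are descriptions over libraries that fall into 3 treatments and share their scaling. How far r rests on the difference between treatments was not tested.

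A promoter entry in RefSeq (build GRCm38.p6, 250 bases before to 50 after the start) was matched for 9 of the 10 members, all except Actb. SRF, which with its coactivators reads the pool of free actin monomers, binds the CArG box, and a match to it on either strand stood in the promoters of Actg1 and Vcl. The box was held by 1.63% of all 32851 promoters listed there. The 2 stretches are shown, with the box in capitals, because no other matched member held one.
Actg1: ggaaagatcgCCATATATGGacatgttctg
Vcl: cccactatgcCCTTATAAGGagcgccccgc
The Actg1 stretch is chr11:120348566-120348595 (minus strand), with 80 bases between the box and the start site, and that of Vcl is chr14:20929161-20929190 (plus strand), with 217. A match is a description of these letters and not a measured site.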

How the data were processed

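Per the labels' protocols, RNA from cell pellets (total RNA) or from beads (anti-HuR or IgG) was made into libraries with the SMART-Seq Stranded kit. The authors deposited 1 table of raw counts per gene, 55483 genes in 27 libraries, with no normalization. The submitters' processing notes name GRCm39, FastQC 0.11.9, STAR, HTSeq and DESeq2, with no role or order. Annotation release and strand setting: not given in the sources used here. All 27 columns were used, and no 2 replicates agreed within sampling noise.

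Counts were tested with edgeR 4.0.16 (R 4.3.3) by two-sided quasi-likelihood F tests with TMM scaling, filterByExpr at a minimum count of 10, and Benjamini-Hochberg adjustment over all genes tested, with calls at an FDR under 0.05. One fit covered the 12 RNA libraries, another the 12 RIP libraries, another the 24 of both (RIP over RNA and its change) and another the 15 of RIP and IgG. Intervals are 95%. Ratios within libraries were compared by exact permutation tests. DESeq2 1.42.0, other scalings, no filter, subsets of replicates and a replicate block were alternatives. The edgeR code was tested on simulated data for some of the comparisons, and the outcome is not given here. Libraries held 2728534 to 41449233 counts, and the lowest count of a member was 77 (Vcl in RNA DMSO replicate 1), followed by 132.

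Same-numbered libraries deviated together in all 12 same-numbered pairs within each assay (correlation 0.195 to 0.452 in RNA and 0.254 to 0.541 in RIP). Among the fits, the alternative with a replicate block took the labels' replicate numbers as pairs, and the reported fits ignore them. The blocked value stands beside a member's result where it changes the call. For RIP over RNA the block was set within RNA and within RIP separately. It thus did not pair a RIP library with the RNA library of its number.

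The 10 members are named in every comparison. From the wider list, up to 3 called genes per direction with the largest log2 change and a mean of at least 5 CPM are named, and for likeness to Actb the 5 genes with the highest r. Predicted symbols were passed over. The members and lists were chosen with earlier results of these data known. Sequences came from GRCm39 with GENCODE M39, and promoters from RefSeq (GRCm38.p6). Protein sequences were not used here.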

Additional observations from a re-analysis of the deposited data

Results flagged for a closer look

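Of 60 groups of 4 libraries (10 genes in 6 groups), 2 held a library that stood apart from the other 3 by Dixon's criterion, which chance alone meets in about 5% of groups. Tmsb4x in RNA LPS replicate 1 measured 191 CPM (191.46), against 473 to 504 CPM in the other 3. Replicate 1 was also the lowest RNA library for Tmsb4x in DMSO and LPS+TM7nox. Cfl1 in RNA DMSO replicate 1, the shallow library, measured 839 CPM (839.259), against 522 to 555 CPM in the other 3. The part of depth or RNA quality in either was not tested.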

How the results depend on the processing

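Of 2220 values of single members recomputed under alternatives, 114 lost a call and 79 gained one without a change of sign. The sign changed in 88, of which 81 were called neither as reported nor under the alternative, under various settings. The other 7 were called in at least 1 of both and came from scaling by total counts: Tmsb4x (-0.58) and Cfl1 (-0.13) in RIP LPS against DMSO, Vcl in RIP LPS+TM7nox against DMSO (-0.16), Vcl in RIP over RNA in LPS (-0.66) and LPS+TM7nox (-0.44), and Tmsb4x (-0.055) and Vcl (-0.99) against IgG. That scaling moved the median of all genes by -0.28 in RNA and -0.63 in RIP for LPS against DMSO, -0.32 and -0.63 for LPS+TM7nox against DMSO, -0.76, -0.998 and -0.98 for RIP over RNA, and -1.02 against IgG. DESeq2 size factors moved it by 0.16, 0.18 and 0.22 for RIP over RNA and 0.13 against IgG, and upper-quartile scaling by -0.24 in RIP for both comparisons with DMSO.

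Counts of members called also depended on the setting, and the cause was not tested. Each is followed by the percentage of all genes called in that direction. For RNA LPS against DMSO, members called higher numbered 6 (20.2%), with 10 under the replicate block (25.2%), 1 in replicates 1 and 2 only (8.41%) and 10 in replicates 3 and 4 only (29.3%). For RNA LPS+TM7nox against LPS, members called lower numbered 4 (6.4%), with 7 under the replicate block (12.7%), 1 in replicates 1 and 2 only (0.561%) and 8 in replicates 3 and 4 only (13.5%). For RNA LPS+TM7nox against DMSO, members called higher numbered 3 (23.7%), with 1 under total counts (15.1%), 1 in replicates 1 and 2 only (10.5%) and 5 in replicates 3 and 4 only (33.1%), and members called lower 0 (23.6%), with 3 under total counts (36.9%) and 2 in replicates 3 and 4 only (30.1%). For RIP LPS against DMSO, members called higher numbered 9 (23.5%), with 2 under total counts (9.54%) and 4 in replicates 1 and 2 only (12.1%), and members called lower 0 (21.2%), with 1 under total counts (47.2%). For RIP LPS+TM7nox against LPS, members called lower numbered 1 (7.61%), with 2 under DESeq2 size factors (7.84%), 3 under upper-quartile scaling (8.02%), 2 under total counts (5.93%), 2 with no filter on low counts (3.18%), 3 by the DESeq2 Wald test (3.64%), 5 under the replicate block (17%), 2 in replicates 1 and 2 only (2.29%) and 0 in replicates 3 and 4 only (3.51%). For RIP LPS+TM7nox against DMSO, members called higher numbered 5 (25.1%), with 2 under upper-quartile scaling (18.3%), 0 under total counts (10.7%), 3 with no filter on low counts (9.13%) and 0 in replicates 1 and 2 only (16.8%), and members called lower 0 (23.1%), with 2 under total counts (48.3%). For RIP over RNA in LPS, members called lower numbered 5 (30.8%), with 8 under total counts (56.8%). The replicate block changed no call other than those given with the results.

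Leaving out single libraries gave 0 to 1 members called lower for RNA LPS+TM7nox against DMSO, 0 to 2 called lower for RIP LPS+TM7nox against LPS, and 2 to 5 called higher for RIP LPS+TM7nox against DMSO. The members' share without mitochondrial genes was 1.43% in RNA DMSO, 2.04% in RNA LPS and 1.21% in RNA LPS+TM7nox. Over all genes, replicates 1 and 2 only called 1668 rather than 5190 for RNA LPS against DMSO (6481 under the block and 7349 in replicates 3 and 4 only), 168 rather than 1704 for RNA LPS+TM7nox against LPS (3091 under the block and 3489 in replicates 3 and 4 only), 2246 rather than 5850 for RNA LPS+TM7nox against DMSO, 3392 rather than 6090 for RIP LPS against DMSO and 789 rather than 2212 for RIP LPS+TM7nox against LPS (4577 under the block and 1070 in replicates 3 and 4 only). The change of RIP over RNA was called for 0 to 148 genes with LPS (6 as reported, 148 under the block) and 0 to 5 with TM7nox (1 as reported, 5 with no filter on low counts). RNA DMSO replicate 1 was the shallowest library, and the part of its depth in these results was not tested.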
